A study of Mus musculus with 4 samples.

Results

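Accessible chromatin was examined around 9 genes of the retinoic acid pathway in day 4 embryoid bodies of WT and CTCF-K20R mouse embryonic stem cells. The genes were Rdh10, Aldh1a2, Dhrs3, Crabp1, Crabp2, Cyp26a1, Rara, Rarb and Rarg, chosen by name from 21840 protein-coding genes. Peaks of ATAC-seq, a sequencing assay that marks open chromatin by where a transposase can insert, were collected within 1 kb of a transcription start site (TSS) of each gene for its promoter, and within 50 kb for its surroundings. Of 80380 regions made by merging the peaks of all libraries, 87 lay within 50 kb of a TSS of these genes.

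Both genotypes were of the line E14Tg2A, kept on fibroblast feeder cells with serum, leukemia inhibitory factor and 2i, then aggregated in hanging drops in medium with serum but without that factor and collected on day 4. In CTCF-K20R cells, hereafter K20R, CRISPR/Cas9 had changed lysine 20 of the architectural protein CTCF to arginine, and WT cells carried the unchanged protein. There were 2 libraries of each genotype, which the study's methods call biological replicates without saying what they shared, and the labels do not say whether the K20R cells were 1 clone. The question was whether accessibility at these genes differed between the genotypes, in a model meant to follow the onset of mesoderm.

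Retinoic acid is made from vitamin A by a chain of oxidations, is carried inside the cell by small binding proteins, acts on nuclear receptors that sit on DNA as heterodimers, and is cleared by cytochrome P450 enzymes. It patterns the early embryo and steers mesoderm and the heart field, and several genes that respond to it encode parts of the pathway itself, so that its level feeds back on its own receptors and enzymes. The receptors bind direct repeats of a short hexamer, and the repeats spaced by 5 bases at the promoters of Rarb and Cyp26a1 are classical response elements.

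Direct repeats with 1, 2 or 5 bases between the hexamers (DR1, DR2 and DR5) were searched on both strands within 100 bp of the strongest summit of each region, with AGGTCA or AGTTCA or GGGTCA or GGTTCA taken as a hexamer. A DR5 was found in 4 of the 87 regions (4.6%), against 0.109% of all 80380 regions, and DR1 and DR2 in none of the 87. These were the promoter regions of Rarb and Cyp26a1, an intergenic region 1851 bp upstream of Cyp26a1 and a region in a Dhrs3 intron 5361 bp downstream of the nearest TSS. The elements of the Rarb and Cyp26a1 promoters are the classical ones, so the choice of genes fixed part of this contrast. No region with a DR5 also held the CTCF consensus. The RefSeq promoter table (GRCm38.p6, the patch level of the mm10 assembly) held 7 of the 9 genes. It gave a DR5 in 2 of their 13 promoter sequences, those of Rarb and Cyp26a1, and in 0.0974% of its 32851 sequences of 300 bp. Crabp2 and Rdh10 were not matched there. The 2 RefSeq matches are the same bases as those in the promoter regions, so they are no separate finding. A match describes letters and says nothing of whether the site is bound. The sequences that hold a DR5 are shown 5′ to 3′ with the repeat in capitals. The Rarb promoter is on the minus strand of chr14:16575427-16575726 and the Cyp26a1 promoter on the plus strand of chr19:37697558-37697857, both from RefSeq, while the 201 bp windows around the summits are on the plus strand of mm10, at chr19:37695847-37696047 for Cyp26a1 and chr4:144898338-144898538 for Dhrs3.
Rarb promoter: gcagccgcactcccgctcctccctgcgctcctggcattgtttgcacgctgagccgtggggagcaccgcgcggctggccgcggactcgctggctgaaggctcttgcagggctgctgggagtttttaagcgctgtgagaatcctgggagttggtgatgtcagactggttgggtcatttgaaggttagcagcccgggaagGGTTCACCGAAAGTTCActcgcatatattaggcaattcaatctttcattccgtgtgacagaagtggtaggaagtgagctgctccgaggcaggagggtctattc
Cyp26a1 promoter: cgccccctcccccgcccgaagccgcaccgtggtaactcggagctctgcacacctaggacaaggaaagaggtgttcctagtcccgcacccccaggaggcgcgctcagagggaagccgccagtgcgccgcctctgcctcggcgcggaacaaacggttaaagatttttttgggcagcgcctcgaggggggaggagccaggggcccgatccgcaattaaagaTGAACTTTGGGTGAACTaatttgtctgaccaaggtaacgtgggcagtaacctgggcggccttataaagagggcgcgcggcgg
Cyp26a1 upstream region: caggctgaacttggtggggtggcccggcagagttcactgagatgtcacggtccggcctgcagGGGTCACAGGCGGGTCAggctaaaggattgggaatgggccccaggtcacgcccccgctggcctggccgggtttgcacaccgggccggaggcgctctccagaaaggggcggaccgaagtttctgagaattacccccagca
Dhrs3 intron region: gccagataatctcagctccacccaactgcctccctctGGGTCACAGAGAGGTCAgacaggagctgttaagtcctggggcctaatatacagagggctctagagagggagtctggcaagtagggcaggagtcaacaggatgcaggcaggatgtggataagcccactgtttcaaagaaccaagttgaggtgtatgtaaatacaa

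The windows of those regions with a peak in both WT libraries and in neither K20R library, the 4 with the highest mean percentile in WT, are shown next on the plus strand of mm10. They lay at chr14:16598302-16598502 and chr14:16572827-16573027 for Rarb, at chr19:37719405-37719605 for Cyp26a1 and at chr4:144896290-144896490 for Dhrs3. None of them held a DR1, DR2, DR5 or CTCF match, so they carry no capitals.
Rarb upstream region: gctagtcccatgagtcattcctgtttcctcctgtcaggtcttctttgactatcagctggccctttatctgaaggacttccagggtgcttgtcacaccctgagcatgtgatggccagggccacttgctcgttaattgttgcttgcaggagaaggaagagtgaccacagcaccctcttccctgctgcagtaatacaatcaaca
Rarb intron region: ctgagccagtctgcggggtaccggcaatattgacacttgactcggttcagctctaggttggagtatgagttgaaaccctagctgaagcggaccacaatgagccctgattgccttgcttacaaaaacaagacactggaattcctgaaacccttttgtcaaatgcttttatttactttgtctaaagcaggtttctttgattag
Cyp26a1 downstream region: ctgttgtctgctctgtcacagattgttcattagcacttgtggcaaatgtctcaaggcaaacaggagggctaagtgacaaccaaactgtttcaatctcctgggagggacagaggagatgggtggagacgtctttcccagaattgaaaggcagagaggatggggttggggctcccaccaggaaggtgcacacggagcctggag
Dhrs3 first WT-restricted region: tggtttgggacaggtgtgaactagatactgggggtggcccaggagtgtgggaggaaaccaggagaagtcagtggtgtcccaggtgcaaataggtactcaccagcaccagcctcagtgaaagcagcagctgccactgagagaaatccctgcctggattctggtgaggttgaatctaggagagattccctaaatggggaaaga

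Of the regions present in every library that limma called lower in K20R, 2 lay inside member genes. Their windows are given on the plus strand, at chr3:87950230-87950430 for Crabp2 and chr11:98941969-98942169 for Rara, and likewise hold none of the motifs searched.
Crabp2 intron region: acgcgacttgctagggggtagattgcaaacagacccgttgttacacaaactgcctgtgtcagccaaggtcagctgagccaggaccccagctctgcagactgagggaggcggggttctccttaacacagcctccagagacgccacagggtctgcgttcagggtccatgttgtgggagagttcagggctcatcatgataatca
Rara intron region: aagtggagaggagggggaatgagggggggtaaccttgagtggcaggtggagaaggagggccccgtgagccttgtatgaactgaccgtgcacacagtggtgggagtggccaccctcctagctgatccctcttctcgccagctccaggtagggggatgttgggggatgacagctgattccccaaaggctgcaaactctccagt

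The lists held 59783 and 66703 peaks in WT against 51823 and 55832 in K20R, with a median fold at the summit of 4.68 and 4.73 in the first replicates and 5.85 and 6.04 in the second. To set single peaks of different libraries side by side, each was given its percentile by −log10 p within its own list, 100 being the strongest. Promoters of the early mesoderm markers T, Mixl1, Eomes, Mesp1 and Lhx1 (5 of 5) and of the pluripotency genes Pou5f1 and Nanog (2 of 2) had a peak in all 4 libraries, and so did 3 of 4 fibroblast genes. The 5 mesoderm promoters each separated by genotype, 3 lower and 2 higher in both K20R libraries. Of all 14480 genes with a promoter peak in every library, 32.2% were lower and 15.7% higher. Ranked anew among the promoter peaks of these genes, again 3 were lower and 2 higher, beside 22.9% and 23.8% of all. T was at 83.1 and 82.8 in WT against 66.7 and 65.6 in K20R, Lhx1 at 78.4 and 75.1 against 62.9 and 60, and Mixl1 at 83.0 and 82.8 against 77.8 and 79.7. Mesp1 was higher in K20R, at 43.5 and 43.4 against 67.3 and 72.4, as was Eomes at 72.8 and 65.8 against 75.5 and 74.1. Pou5f1 was higher in K20R (77.9 and 79.3 against 84.9 and 87.7) and Nanog lower (73.7 and 82.5 against 72.1 and 68.5). Ranked anew, Pou5f1 stayed higher, while Nanog overlapped at 21.6 and 36.2 in WT against 23.2 and 15.9 in K20R. Percentiles of Col1a1, Col1a2 and Thy1 ran from 78.5 to 94.3 in WT and from 77.4 to 85.2 in K20R, and S100a4 was at 10.5 in 1 WT and 9.35 in 1 K20R library. The part of feeder cells, or of a different mix of early cell types, in the values that follow was not tested. The mutation could not be checked in peak lists, which carry no read sequence.

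A promoter peak was found for each of the 9 genes in every library. By the order of the 4 percentiles, 0 of the 9 promoters were lower in both K20R than in both WT libraries, 2 were higher (Rara and Rarb) and 7 overlapped. Over the 14480 genes with a promoter peak in every library, 32.2% were lower and 15.7% higher. When the promoter peaks of these genes were ranked anew among themselves, which takes out the difference in list length, 0 members were lower and 3 higher (Aldh1a2 joined Rara and Rarb), beside 22.9% and 23.8% of all genes. For each gene an exact permutation test over libraries (two-sided) cannot go below p = 0.33 with 2 against 2, so no single promoter could pass 0.05. Adjusted over the 9 genes, p was 0.857 or 1. With each library left out in turn, 1 to 4 genes were lower and 3 higher. With 1 library in a group the values separate more easily, and the share over all genes is not given there. These counts are therefore not comparable with those of 2 against 2.

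The enzymes that make retinoic acid had promoter peaks in the upper part of every list of all peaks. Ranked anew among promoter peaks, Rdh10 was around the middle, at 62.6 and 40.1 in WT against 50.1 and 43.2 in K20R. Aldh1a2 was then in the lower part, at 18.9 and 22 in WT against 29.4 and 22.3 in K20R. Rdh10 (chr1:16105774-16133734, plus strand), which oxidizes retinol to retinaldehyde, had its promoter peak at percentiles of 90.6 and 84.0 in WT against 85.0 and 83.6 in K20R. The groups overlapped, with a mean of 87.3 ± 4.64 against 84.3 ± 1.04 (SD, n = 2). The summit of this region lay 918 bp upstream of the Rdh10 TSS and within 1 kb of the TSS of Rpl7, so the peak is shared by both promoters. Aldh1a2 (chr9:71215789-71296243, plus strand), the dehydrogenase that makes retinoic acid from retinaldehyde in the mesoderm, stood at 71.8 and 75.1 in WT against 75.8 and 73.3 in K20R. The groups overlapped, and their means differed by 1.16 points.

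Dhrs3 (chr4:144892827-144928209, plus strand) encodes a reductase that turns retinaldehyde back into retinol. Its promoter percentiles were 70.9 and 77.4 in WT against 71.3 and 61.3 in K20R. K20R replicate 2 was the lowest library, while K20R replicate 1 lay inside the WT range. A weaker region inside the gene that also touches a promoter window (chr4:144893486-144894954) was at 36.1 and 31.2 in WT against 36.1 and 36.9 in K20R. Cyp26a1 (chr19:37697798-37701536, plus strand), which hydroxylates retinoic acid for its removal, was at 71.0 and 67.0 in WT against 70.3 and 62.2 in K20R, again with overlap and with the lowest value in K20R replicate 2. The differences of -7.87 points for Dhrs3 and -2.74 for Cyp26a1 became 4.21 and 2.33 when peaks were ranked by the fold.

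Of the binding proteins, Crabp1 (chr9:54764748-54773110, plus strand), which holds retinoic acid in the cytosol, had percentiles of 72.7 and 65.9 in WT against 71.2 and 58.8 in K20R. In both genotypes the second replicate was the lower, by more than the genotypes differed. Crabp2 (chr3:87948666-87953376, plus strand), which hands retinoic acid to the receptors in the nucleus, had the weakest promoter peak of the 9 genes, at 49.5 and 25.0 in WT against 40.4 and 44.9 in K20R. The WT libraries enclosed the K20R libraries, with an SD of 17.3 between the WT values.

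The receptor genes included both promoters that ranked higher in K20R. Rara (chr11:98927818-98974942, plus strand, 5 TSSs) was at 81.6 and 82.5 in WT against 83.0 and 85.0 in K20R, a difference in means of 2 points. Both K20R values lay above both WT values by a narrow margin, and with a promoter window of 2000 bp the difference was -8.2 points. That window takes in a region 1640 bp upstream of the first TSS (chr11:98925381-98926687), named after its values were seen. It was at 91.1 and 93.4 in WT against 61.9 and 73.7 in K20R. In WT it ranked above the promoter peak, in K20R below it. Its log2 difference of the fold was -0.46 ± 0.22 (SE, limma adjusted p = 0.263). Of the other regions touching a 1 kb promoter window of Rara, a common one lay at the most downstream TSS (chr11:98959558-98960747). It was at 68.3 and 56.1 in WT against 58.7 and 52.6 in K20R. There were also 2 weaker ones that each lacked a peak in 1 WT library. The one at the first TSS (chr11:98927630-98928411) was at 20.2 in WT replicate 1 against 18.9 and 20.5 in K20R, and that at chr11:98936092-98936783 at 23.3 in WT replicate 2 against 35.7 and 23.7. Rarb (chr14:16430839-16819156, minus strand), the receptor gene that retinoic acid itself induces, was at 66.7 and 66.9 in WT against 81.4 and 69.9 in K20R. The WT libraries were almost equal and both K20R libraries lay higher, with a mean difference of 8.80 points that came mostly from K20R replicate 1. Without that library the difference was 3.07 points. Rarg (chr15:102234938-102257517, minus strand) was at 76.2 and 79.4 in WT against 74.3 and 85.3 in K20R, with overlap. Its difference in means of 2.05 points turned to -3.43 without K20R replicate 2, to -16 ranked by the fold and to -14.7 with a single TSS. Its WT replicate 2 value comes from the upstream one of its 2 TSSs and the others from the downstream one, so both regions are given. The downstream promoter region was at 76.2 and 73.0 in WT against 74.3 and 85.3 in K20R, and the upstream one, the 5′ end of the gene, at 75.6 and 79.4 in WT against 62.8 in both K20R libraries.

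**Figure D1:**
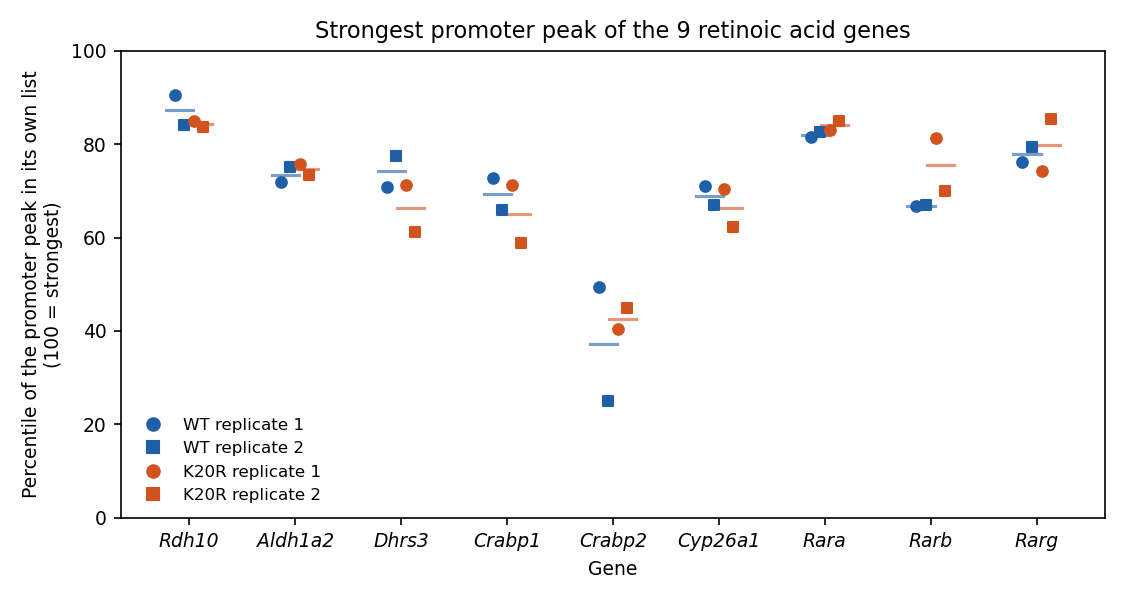
Percentile of the strongest promoter peak (y axis, 100 being the strongest peak of a list) of the 9 genes (x axis) in 2 WT (blue) and 2 K20R (orange) libraries. Circles are replicate 1, squares replicate 2, and short lines the mean of the 2 libraries. The blue and orange points overlap for 7 genes and separate for Rara and Rarb, where K20R lies higher.

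Beyond the promoters, the 87 regions fell into 50 with a peak in all 4 libraries (common), 13 with a peak in both WT and in neither K20R library (WT-restricted), 1 with the reverse pattern (K20R-restricted) and 23 with another combination. The WT-restricted share of 14.9% stood beside 10.4% over all regions and the K20R-restricted share of 1.15% beside 3.10%. The number of peaks with a summit within 50 kb was 76 and 75 in WT against 65 and 63 in K20R, or 75.5 ± 0.707 against 64 ± 1.41 (SD, n = 2). Both K20R libraries had fewer, with p = 0.33 by an exact permutation test (two-sided), which can give no smaller value here. As a share of each list these peaks made up 0.127% and 0.112% in WT against 0.125% and 0.113% in K20R, which overlapped. The K20R lists as a whole were shorter.

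Each deposited list holds only part of the peaks that were called. The peak numbers run upwards with gaps, so a region without a listed peak may have had one that was taken out. The WT lists held 51.7% and 50.5% of their numbers and the K20R lists 58.6% and 60.8%, so the share taken out differed between the genotypes. Where the listed peaks on either side of a region carry consecutive numbers, no called peak is missing between them. In 7 of the 13 WT-restricted regions this was so in both K20R lists.

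Rarb held the most WT-restricted regions of the 9 genes. Of the 8 regions within 50 kb of its TSSs, 5 were WT-restricted, 2 were seen in 1 WT library each, and only the promoter was common. Each WT library had a peak in 7 of the 8 regions and each K20R library in 1, the promoter. All of them lay around the downstream one of its 2 TSSs, at position 16575543. In bulk embryoid bodies, fewer cells with an open region and less access per cell cannot be told apart. The first WT-restricted region, in an intron 2616 bp downstream (chr14:16572706-16573494), was at percentiles of 54.2 and 53.0 in WT, with folds of 4.30 and 4.55. A much weaker one lay 1544 bp downstream (chr14:16573749-16574264, 3.86 and 2.64), close to the floor of the lists. In the same intron, the regions 20980 bp (chr14:16554179-16554875) and 30399 bp downstream (chr14:16544422-16545606) were at 26.3 and 47.4 and at 38.4 and 52.1. In these 4 regions no peak number was missing in either K20R list.

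The strongest Rarb region outside the promoter lay 22575 bp upstream of that TSS (chr14:16598003-16598701). It was inside the annotated span of the gene but outside the protein-coding transcripts used here. It reached percentiles of 57.7 and 64.2 and folds of 6.38 and 9.70 in the WT libraries. K20R replicate 2 had no number missing there and K20R replicate 1 had 5, in a gap that also spans the 2 weak regions further upstream (chr14:16603398-16603624 at 4.69 in WT replicate 1, and chr14:16605593-16605800 at 23.1 in WT replicate 2). The promoter peak of Rarb ranked higher in both K20R libraries while no other peak within 50 kb was listed in them. In the wider neighbourhood, from 50 kb to 1 Mb, 4 of 29 regions (13.8%) were WT-restricted and the common regions had a median log2 difference of 0.09. Leaving Rarb out, 8 of 79 regions (10.1%) of the other 8 genes were WT-restricted, close to the 10.4% of all regions.

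**Figure D2:**
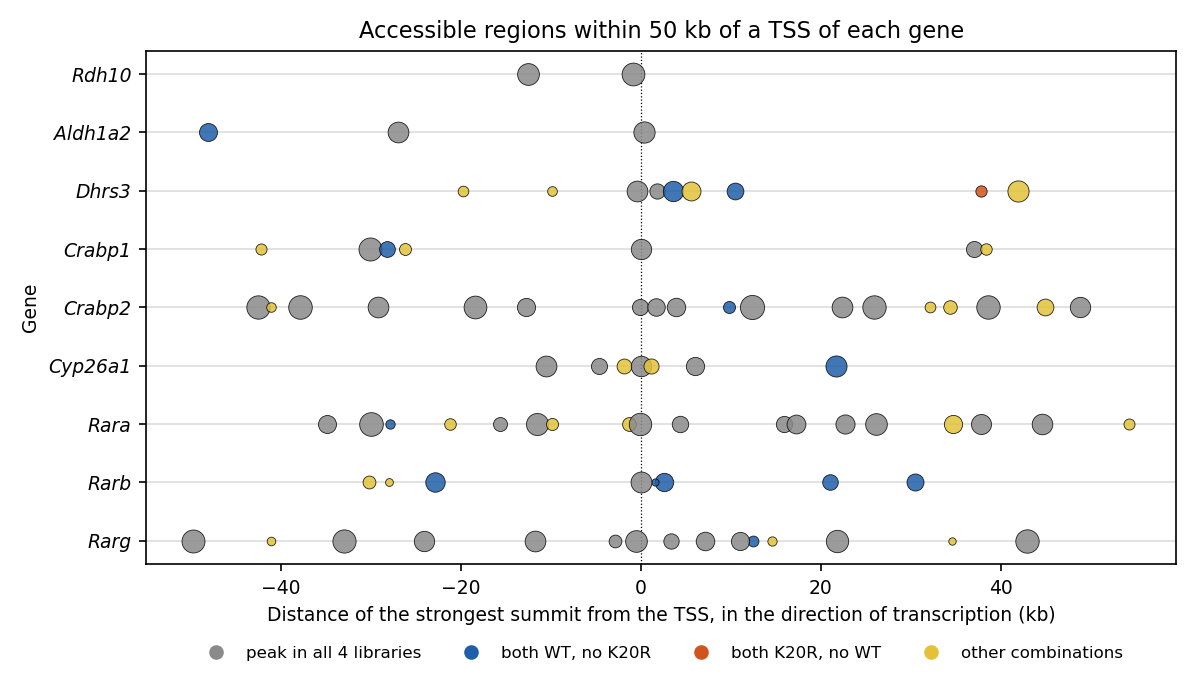
The 87 regions by the distance of their strongest summit from the TSS (x axis, kb, positive in the direction of transcription) for each gene (y axis). The dot area grows with the mean percentile over the libraries that list the peak, and for genes with several TSSs the distance is from the one whose promoter peak was strongest in WT replicate 1. Grey dots have a peak in all 4 libraries, blue in both WT and no K20R, orange in both K20R and no WT, and yellow in other combinations. Rarb shows 5 blue dots around 1 grey promoter dot.

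The strongest WT-restricted region of all was intergenic, 21707 bp downstream of the Cyp26a1 TSS (chr19:37719054-37719774). It stood at percentiles of 76.9 and 68.6 and folds of 6.89 and 6.42 in WT, above the promoter of the gene itself in those libraries. In the K20R lists 4 and 3 peak numbers were missing across it, so a removed peak is possible there. The DR5 region 1851 bp upstream of Cyp26a1 had a peak in 1 library of each genotype, at 39.7 in WT replicate 2 and 26.3 in K20R replicate 1, and no number was missing in the other 2 lists. The 4 common regions near Cyp26a1, the promoter with its DR5 included, did not pass the limma test.

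Dhrs3 had 2 WT-restricted regions in its introns. The nearer one, 3313 bp downstream of its closest TSS (chr4:144896192-144896616), was at 66.0 and 67.7 in WT, with 1 and 0 numbers missing in the K20R lists. The other, 10176 bp downstream (chr4:144903007-144904348), was at 51.3 and 36.2, with 1 and 3 numbers missing. Between them lay the DR5 region at 5361 bp (chr4:144898293-144898604). It ranked at 71.9 and 69.3 in WT, was not listed in K20R replicate 1 (1 number missing) and stood at 30.9 in K20R replicate 2. At this region K20R replicate 2 was below both WT libraries and K20R replicate 1 lacked the peak. The single K20R-restricted region of the whole set was also at Dhrs3, intergenic and 37499 bp downstream (chr4:144930143-144930727), weak at 12.8 and 20.3, with 3 and 4 numbers missing in the WT lists. The strongest region outside the promoter, 41672 bp downstream (chr4:144934304-144935221), was listed in the first replicates alone, at 75.7 in WT against 71.2 in K20R.

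The other WT-restricted regions were spread over 5 genes with 1 each. That of Aldh1a2 lay 48082 bp upstream, in the promoter of Aqp9 (chr9:71167300-71168088), at 47.9 and 53.8 in WT with no number missing in K20R. For Crabp1 it was intergenic, 28150 bp upstream (chr9:54736370-54736684), at 36.7 and 39.5 with 2 and 1 numbers missing. Those of Crabp2 (9777 bp downstream, chr3:87958187-87958715, at 8.23 and 31.2) and Rarg (12479 bp downstream, chr15:102233772-102234539, at 0.815 and 28.7) were intergenic and weak in WT replicate 1, with no number missing. The one near Rara, in an intron of Cdc6 18023 bp upstream (chr11:98909590-98909897), was at 13.9 and 5.18, with 2 and 0 numbers missing. Rdh10 had none. Over the 13, the median of the mean WT percentile was 43.8, against 30 for all 8341 WT-restricted regions.

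**Figure D3:**
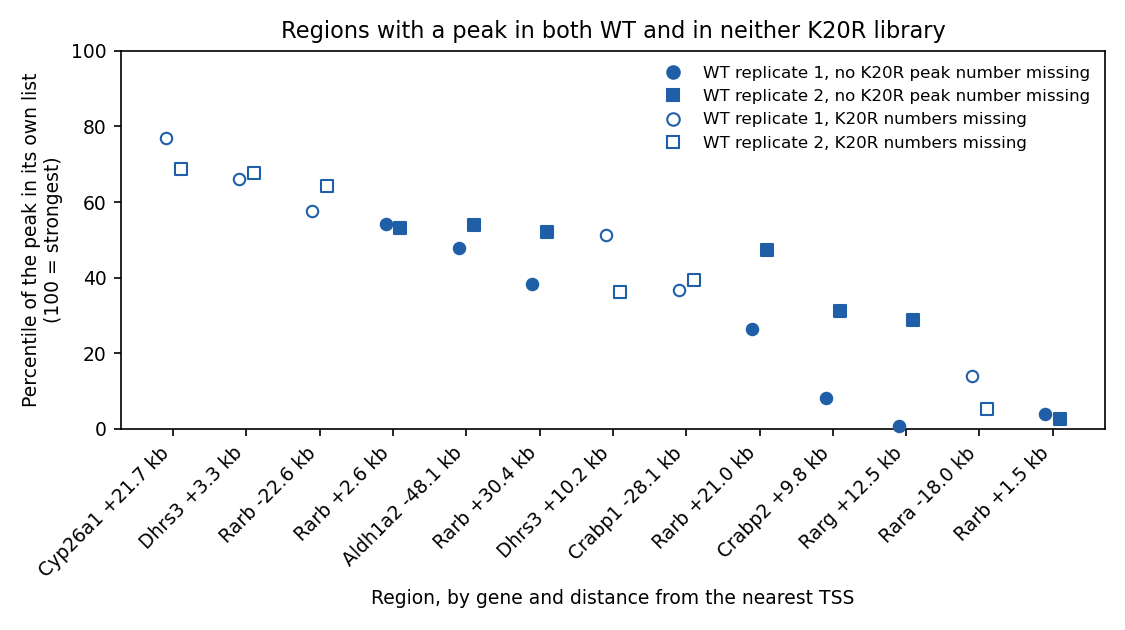
Percentile in WT replicate 1 (circles) and replicate 2 (squares) of the 13 regions without a listed K20R peak (x axis: gene and distance of the summit from the nearest TSS). Filled symbols mark the 7 regions where no peak number is missing in either K20R list, open symbols those where a removed peak is possible. Regions of Cyp26a1, Dhrs3 and Rarb rank highest, and 4 of the 5 Rarb regions are filled.

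The CTCF consensus, searched in the same windows, was present in 4 of the 87 regions (4.6%), against 5.97% of all regions. It lay in the WT-restricted Cdc6 intron region upstream of Rara and in 3 common regions, 15066 bp downstream of Rara (chr11:98974960-98975597), 12782 bp upstream of Crabp2 (chr3:87935610-87936315) and 38507 bp downstream of Crabp2 (chr3:87986776-87988240). The common region downstream of Rara was at 62.8 and 76.6 in WT against 56.5 and 63.3 in K20R, with overlap. Its log2 difference of the fold was -0.26 ± 0.23 (SE, limma adjusted p = 0.627). Those of Crabp2 were at 0.11 ± 0.24 and 0.20 ± 0.19 (SE, limma adjusted p of 0.881 and 0.672). No common region near the 9 genes with a CTCF consensus passed the test.

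At common regions every library has a fold at its own summit, and these summits need not share a position. Deposited folds of 38527 common regions were put on the log2 scale, quantile-normalized and tested with limma, with Benjamini-Hochberg adjustment over all of them. Of the 50 common regions near the 9 genes, 3 were lower and 0 higher in K20R at an adjusted p under 0.05, against 3.63% lower and 2.48% higher over all common regions. At an unadjusted p under 0.05, 7 of the 50 were lower and 2 higher, beside 9.39% lower and 8.78% higher of all common regions. The median log2 difference was 0.07, against 0.01 for all, and 24 of the 50 were negative.

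The lowest value belonged to a region 25029 bp upstream of the nearest Rara TSS, in an untranslated exon of Wipf2 (chr11:98902387-98903195). Its folds were 5.69 and 7.56 in WT against 2.67 and 3.37 in K20R, and its percentiles 71.8 and 77.5 against 22.8 and 32.8. The groups were well apart, with a log2 difference of -1.09 ± 0.24 (SE, limma adjusted p = 0.00325). Within the Rara gene, an intron region 2358 bp downstream of the nearest TSS (chr11:98940891-98942750) had folds of 4.11 and 3.63 in WT against 1.88 and 2.48 in K20R, a difference of -0.86 ± 0.22 (adjusted p = 0.0129). Its percentiles were 74.7 and 61.5 in WT against 7.83 and 23.4 in K20R. This call was lost without WT replicate 1 (adjusted p = 0.101) and without K20R replicate 1 (0.266), and with libraries centred on their median in place of quantile normalization (0.0745). Nearby in the same gene, a region 6856 bp upstream of its closest TSS (chr11:98952706-98953741) was at 60.7 and 60.1 in WT against 22.5 and 19.9 in K20R, but its log2 difference of -0.66 ± 0.22 missed the threshold (adjusted p = 0.0708). The Rara promoter itself went the other way, at 0.38 ± 0.22 (adjusted p = 0.399).

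The remaining call was at Crabp2, with its summit in an intron, 1664 bp downstream of its TSS (chr3:87949646-87950643). Folds were 4.15 and 4.44 in WT against 2.16 and 2.48 in K20R, and percentiles 76.5 and 76.4 against 17.6 and 23.5. The difference was -0.87 ± 0.22 (adjusted p = 0.0114), and it missed the threshold without WT replicate 1 (0.0578), K20R replicate 1 (0.144) or K20R replicate 2 (0.0724). In WT this intron region ranked above the Crabp2 promoter, and in K20R below it, while the promoter (0.35 ± 0.21, adjusted p = 0.401) and the region at the 3′ end of the gene, 3917 bp downstream (chr3:87952155-87953721, 0.37 ± 0.23, adjusted p = 0.434), did not pass the test. The edge of the merged region lies just within 1 kb of the TSS, its summit does not. A promoter window of 2000 bp takes its WT peaks in, and the promoter percentile difference of Crabp2 then went from 5.41 to -33.8 points. The strongest region near Crabp2, 12331 bp downstream towards Nes (chr3:87960203-87961347), was at 97.0 and 95.4 in WT against 97.6 and 98.4 in K20R, with 0.44 ± 0.14 (adjusted p = 0.0583).

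The Rarb promoter had the largest positive difference of the 50, with folds of 5.28 and 5.67 in WT against 9.33 and 7.92 in K20R. Both K20R folds were above both WT folds, by 0.67 ± 0.22 on the log2 scale (adjusted p = 0.0687). It did not pass the threshold. Over the alternative fits the adjusted p ran from 0.0179, without K20R replicate 2, to 0.661, without K20R replicate 1. The promoters of Rdh10 (-0.06 ± 0.22), Aldh1a2 (0.08 ± 0.19), Dhrs3 (0.18 ± 0.24, and 0.30 ± 0.19 for its weaker region), Crabp1 (-0.01 ± 0.22) and Cyp26a1 (0.12 ± 0.24), the downstream promoter of Rara (0.06 ± 0.23) and the promoter regions of Rarg (0.23 ± 0.24 and -0.29 ± 0.23) did not pass it either, with adjusted p from 0.437 to 0.988.

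The strongest regions outside the promoter of 4 genes were promoters of neighbouring genes, and none passed the test. These were 4930444P10Rik near Rdh10 (chr1:16092691-16093808, 0.19 ± 0.18), Wdr61 near Crabp1 (chr9:54733998-54734730, -0.08 ± 0.14), Cdc6 near Rara (chr11:98907412-98908237, 0.20 ± 0.14) and Zfp740 near Rarg (chr15:102202965-102204462, 0.09 ± 0.16). The intergenic region 26969 bp upstream of Aldh1a2 (chr9:71188442-71189329) was at 76.9 and 77.4 in WT against 63.0 and 64.1 in K20R. Both K20R libraries lay lower, and the log2 difference of the fold was -0.38 ± 0.15 (adjusted p = 0.148), which did not pass.

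**Figure D4:**
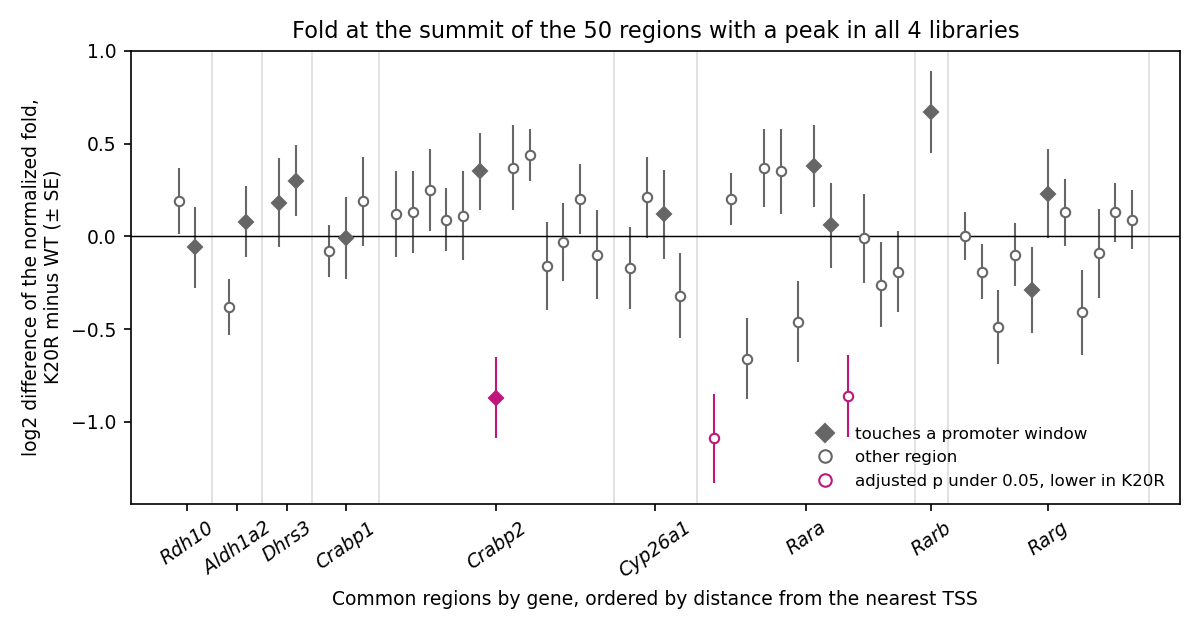
log2 difference of the quantile-normalized fold at the summit, K20R minus WT (y axis, ± SE from limma), at the 50 common regions, grouped by gene and ordered by distance from the nearest TSS (x axis). Diamonds touch a promoter window and circles do not. The 3 magenta symbols, 2 at Rara and 1 at Crabp2, have an adjusted p under 0.05, and the Rarb promoter is the highest point at 0.67.

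A list of 25 other retinoid genes, of which 22 had a promoter peak in all 4 libraries, was read the same way. By percentile within the whole list 14 of the 22 were lower in both K20R libraries and 2 higher, and after ranking anew among promoter peaks 10 were lower and 4 higher. All genes with such a peak gave 32.2% and 15.7% within the whole list, and 22.9% and 23.8% ranked anew. Over the classes, ranked anew, 3 of 3 dehydrogenases and reductases, 2 of 2 degrading enzymes, 2 of 4 carriers and 2 of 4 cofactors were lower, while of the partner receptors 0 of 3 were lower and 1 was higher, and of the targets 1 of 6 was lower and 3 higher. Cyp26b1, a degrading enzyme like Cyp26a1, had the widest gap, at 62.4 and 59.6 in WT against 36.9 and 35.9 in K20R. The gap between the nearest values was 22.7 points, whereas those of Cyp26a1 overlapped. The test of the fold did not call the Cyp26b1 promoter regions (-0.40 ± 0.22 and -0.27 ± 0.22, adjusted p of 0.346 and 0.6). The other degrading enzyme, Cyp26c1, named after its values were seen, separated narrowly. Ranked anew it was at 25.6 and 20 in WT against 11.6 and 19.6 in K20R. Its promoter region is also a common region near Cyp26a1, and was not called (-0.17 ± 0.22, limma adjusted p = 0.779). Of the 26 common regions at promoters of 23 of these genes, limma called 0 lower and 0 higher, and 1 lower and 5 higher at an unadjusted p under 0.05, beside 9.39% and 8.78% of all common regions.

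Aldh1a1 and Stra8, which lacked a promoter peak in part of the lists, were named after their values were seen. Aldh1a1, a retinaldehyde dehydrogenase like Aldh1a2, had a peak in the WT libraries alone, at 57.7 and 72.2. Missing peak numbers are not given for this promoter, so a removed K20R peak is possible there. For Stra8, a gene that retinoic acid induces, a peak came within 1 kb in the K20R libraries alone, at 72.0 and 77.7, but the merged region there had a peak in all 4 lists (0.55 ± 0.20, adjusted p = 0.101), so the WT peaks stopped short of the window.

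**Figure D5:**
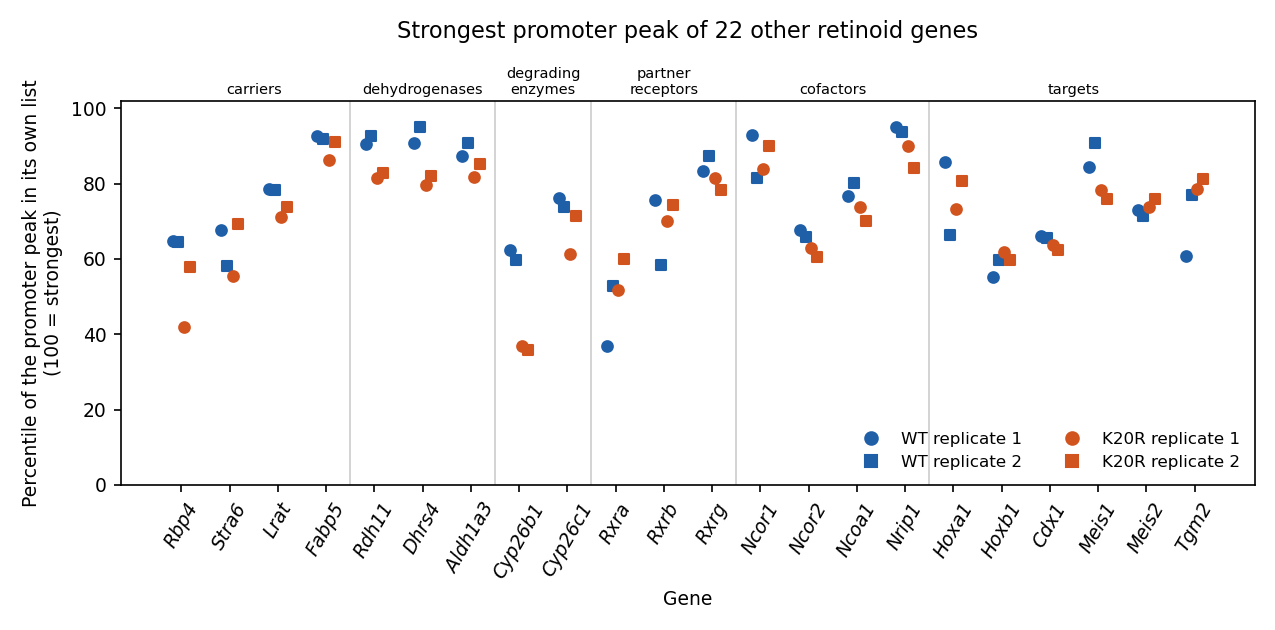
Percentile of the strongest promoter peak (y axis) of the 22 other retinoid genes with one in all 4 libraries (x axis, by class), in WT (blue) and K20R (orange). Circles are replicate 1 and squares replicate 2. Cyp26b1 shows the widest gap, with 36.9 and 35.9 in K20R below 62.4 and 59.6 in WT.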

How the data were processed

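ATAC-seq peak lists of 4 libraries (2 WT, 2 K20R, day 4) were analysed, grouped by their labels. Per the study's methods the authors trimmed reads with Trim_Galore, aligned them to mm10 with bowtie2, kept those with a mapping quality of at least 30, removed duplicates and blacklisted reads, and called peaks with MACS2, in 1 list per library. The deposited score is 10 times the rounded −log10 p, the authors' ratio is the fold of the summit over its local background, and the authors' −log10 p and −log10 q (p-value and q-value) refer to the same summit. Peak offsets were deposited in bp. Depth is not given in the sources used here, and reads were not used, so no count test was possible.

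Promoters were peak intervals within 1000 bp of a protein-coding TSS (GENCODE vM21 basic, same build). Percentiles used −log10 p within a list. Peaks sharing at least 1 bp were merged into regions, placed by their strongest summit. Common regions were fitted with limma 3.58.1 in R 4.3.3 (log2 fold, quantile normalization, trend, Benjamini-Hochberg, threshold 0.05). The code was tried on simulated data with independent noise of a fixed size, which does not give its error rates on these libraries. Fits are on 2 residual degrees of freedom per region, and limma moderates the variance of each region towards a trend over all common regions. The p-values thus measure a spread between these libraries that is largely pooled over regions, not that of each region alone. Single values were compared by exact permutation tests. The script language was Python 3.11.15. Named were all 9 genes, their promoter regions, every WT- or K20R-restricted or called region, the strongest region outside each promoter, and other retinoid genes whose groups were at least 10 points apart or whose promoter region was called. One gene of the retinoid list is not reported here. Members, gene lists and motifs were chosen with earlier results of these data known. Alternatives were other windows, TSS sets, ranks, filters, merging, normalization and left-out libraries.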

Additional observations from a re-analysis of the deposited data

How the results depend on the processing

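The 9 promoters kept a peak in all 4 libraries under every alternative except a single TSS per gene (7 did) and the summit itself within 1000 bp (8 did). Members lower in both K20R libraries (0 in the report) came to 1 with peaks of −log10 q of at least 5, 2 with a 2000 bp window, 1 ranked by the fold and 1 with a single TSS per gene, and to 1 to 4 with each library left out in turn. Members higher in both (2) came to 1, 1, 4 and 0 with that q filter, the 2000 bp window, equal list sizes and a single TSS, and to 3 with each library left out. WT-restricted regions (13) came to 4 within 10 kb, 8 with the q filter, 8 with a single TSS and 7 where no peak number was missing, and to 14 to 18 with a library left out. K20R-restricted regions (1) came to 0 within 10 kb, 0 with the q filter, 0 where no number was missing, 4 with 200 bp summit windows, 3 with equal list sizes, and 2 to 5 with a library left out. Shares over all genes or all regions are not given for these alternatives, so the moves are not read as results about the members.

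Common regions lower by limma (3) came to 7 on the −log10 p in place of the fold, beside 8.65% of all common regions. They came to 0 with the q filter, beside 1.88%, and under it at least 1 K20R peak of each of the 3 drops out. In fits with a library left out, the lone sample is assumed to vary like the other group. The log2 differences of the 3 regions stayed negative in those fits. Those higher (0) came to 1 with median centring, which called the Rarb promoter (limma adjusted p = 0.022), beside 2.63% of all common regions. With the replicate number as a block, 2 were lower and 1 higher (the Rarb promoter, limma adjusted p = 0.0422), beside 3.7% and 2.6% of all common regions. The block dropped the Rara intron region (0.053). Replicates of the same number deviated together with r = 0.21 over 38527 common regions, which are not independent, and 2 pairs do not show that numbers mark shared cultures. The difference in peaks within 50 kb kept its direction under every alternative, from -12.5 to -2.5. Percentile differences changed sign in 16 of 105 settings, for Rarb in 0 of 11. Crabp2 went from 5.41 to -33.8 points with the 2000 bp window, which takes in its intron region, and Rarg to -16 ranked by the fold and -14.7 with a single TSS. Rara went from 2 to -8.2 points with the 2000 bp window, which takes in the region 1640 bp upstream of its first TSS. The cause of the other moves was not tested. The summit rule and the missing-number rule were chosen after seeing the data. With so few libraries, and with peaks removed by a rule not given in the sources used here, the absence of a peak is no measured level.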
